A study of Rattus norvegicus with 21 samples.

Results

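The interaction between Klf2 knockdown and phenylephrine (PE) was examined in the 8 RNA sequencing libraries of the knockdown experiment, out of 21 libraries in the series. These are all the libraries of the knockdown table, in 4 groups of 2. The cells were neonatal rat ventricular myocytes, primary heart muscle cells from newborn rats, kept in medium with insulin, transferrin and selenium. The siNeg group received a negative control small interfering RNA and no PE, and the siKlf2 group an interfering RNA against Klf2 and no PE. The siNeg with PE and siKlf2 with PE groups received the same RNAs 12 h before 100 µM PE, which was given for 36 h. All 4 groups therefore carry an interfering RNA, and no untransfected cells enter the comparison. A treatment tag names PE for every library, and the groups were taken from the sample titles. A separate time tag reads 36 h for the groups with PE and no elapsed hours for those without. Whether that tag gives PE exposure or time of harvest is not stated in the labels. If cells without PE were harvested earlier, time in culture and time after transfection would differ together with PE. The PE effects and the interaction would then include those differences, which was not tested. Whether the 2 libraries of a group are independent cultures is not stated in the labels. The p-values below rest on the variation between libraries, part or all of which may be technical. RNA came from whole cultures, in which fewer cells of a type and less RNA per cell cannot be told apart.

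PE is an agonist of the α1-adrenergic receptor. That receptor signals through Gq proteins to phospholipase C, protein kinase C, calcium and mitogen-activated kinases, and in cultured ventricular myocytes it induces hypertrophic growth and genes of the fetal heart programme. KLF2 is a zinc finger transcription factor of the Krüppel-like family, best known for its part in quiescent vascular endothelium. One reference for 2 factors together is that their log2 fold changes add, which is the same as saying that their folds multiply. Another is that their gains in level add, and both are used below. The quantity tested here, called the departure, is the knockdown effect with PE minus the knockdown effect without PE, on the log2 scale. It equals the joint effect (siKlf2 with PE against siNeg) minus the sum of the 2 single effects, and also the PE response after knockdown minus that in siNeg. A departure above 0 means a level in siKlf2 with PE above the product of the single folds, and one below 0 a level under it.

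The libraries held 181101876 to 224082309 counts, and replicates of a group correlated at 0.999 to 0.9995 in log2(CPM + 1), where CPM is a gene's count relative to its scaled library total. Scaling factors ran from 0.8697 to 1.125, lowest in both libraries of siKlf2 with PE and highest in both of siNeg. Genes are listed by Ensembl ID, and 0 of 30560 IDs matched a symbol in the reference used here. The level of Klf2, the markers of heart muscle and other cell types, and lists of named pathways were therefore not analysed here. Results are given for classes of genes defined by their response, and for 4 IDs, the 2 largest positive and the 2 largest negative departures under the rule given with the methods.

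The interaction was called for 2622 of 18173 tested genes, or 14.4%, by edgeR's quasi-likelihood test at an adjusted p under 0.05, with 1287 departures above 0 (7.08%) and 1335 below (7.35%). Most were small, with quartiles of -0.31 and 0.31 on the log2 scale. A departure of at least 1.5 fold was reached by 447 of them, 2.46% of tested genes, of which 202 lay above 0 (1.11%) and 245 below (1.35%). Among these, 124 departed by at least 2 fold. Just under the limit of 1.5 fold, 203 called genes had a departure of 1.4 to 1.5 fold, and just over it 121 had one of 1.5 to 1.6 fold. A further 2096 genes passed the fold without being called. Of the 447 genes, 446 kept the sign of their departure in all 16 ways of taking 1 library from each group, and 42.4% of all tested genes did so. The genes were chosen on the same libraries, so that count describes them and does not test them.

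How often the interaction was called rose with the level of a gene. At a mean under 1 CPM it was called for 69 of 5419 genes, and all 69 departed by at least 1.5 fold. At a mean of 100 CPM or more it was called for 637 of 1986 genes, of which 50 departed that far. At 1 to 10 CPM 187 of 368 called genes departed by at least 1.5 fold, and at 10 to 100 CPM 141 of 1548. Departures under 1.5 fold were thus called only at a mean of 1 CPM or more. The median SE of the departure fell from 0.57 in the lowest of these ranges to 0.05 in the highest, on the log2 scale. Among the 50 abundant genes 37 departures were below 0 and 13 above. Scaling by library totals alone moved the share of called departures that lay above 0 from 49.1% to 24.2%, and that among departures of at least 1.5 fold from 45.2% to 30%. The same change moved the median departure of all tested genes from -0.01 to -0.07. Without siNeg replicate 1 or 2, siKlf2 replicate 1 or siKlf2 with PE replicate 1, the interaction calls numbered 1739, 1553, 1669 and 1685.

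The 447 genes were sorted by their single effects, each called at an adjusted p under 0.05. Over all tested genes knockdown without PE was called for 53.9% (27.2% higher and 26.8% lower), PE in siNeg for 49.1% (24.8% and 24.3%) and the joint effect for 65.8% (31.2% and 34.6%). These contrasts set the classes, so nothing is read from those shares. Among the 447, both single effects were called and ran in the same direction in 196 genes, of which 146 departed toward less than the sum and 50 toward more. Both were called and ran in opposite directions in 87. Only 1 single effect was called in 140, and neither in 24. The siNeg libraries enter both single effects with one sign and the departure with the other, so error in those libraries alone moves a gene toward the less-than-sum class. That class held 160 genes without siNeg replicate 1 and 117 without siNeg replicate 2, of which 113 and 102 were among the 146. Class sizes are given as a description, with no test of one against another.

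**Figure D1:**
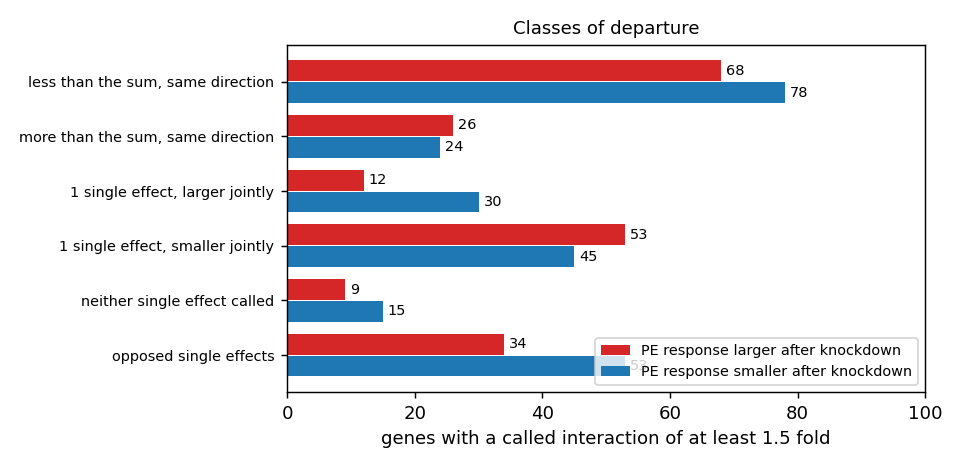
Number of genes (horizontal axis) with a called interaction of at least 1.5 fold in each of 6 classes of single effects (vertical axis), in red for a PE response that was larger after knockdown and in blue for a smaller one. The class with both single effects in the same direction and a joint effect under their sum is the longest pair of bars, with 68 and 78 genes.

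**Figure D2:**
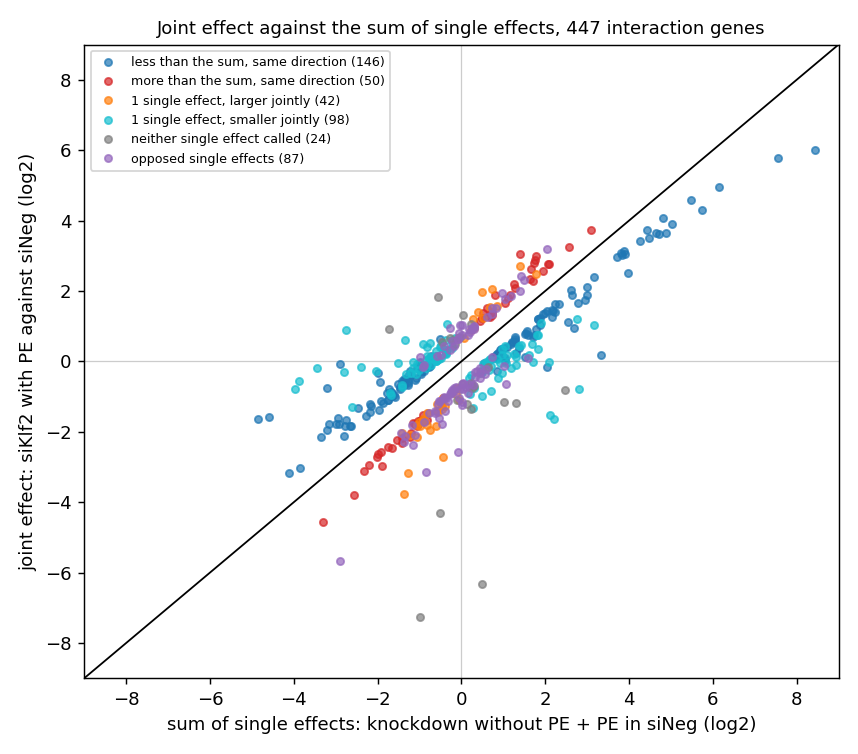
Each point is 1 of the 447 genes, with the sum of its single effects on the horizontal axis and its joint effect on the vertical axis, both as log2 fold changes against siNeg, coloured by class. On the black line the joint effect equals the sum. Points far to the right lie under the line, where the largest sum, 8.43, goes with a joint effect of 5.99. Both axes use the siNeg libraries.

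Genes raised by both factors and reaching less than the sum of their effects numbered 78. Their median log2 fold change was 0.86 for knockdown without PE (quartiles 0.48 and 1.47) and 1.05 for PE in siNeg (quartiles 0.58 and 1.86). The sum of the single effects had a median of 1.92, and the joint effect one of 1.09. The median departure was -0.75, and the most negative was -3.15. The median joint effect was thus close to that of PE alone. Measured against the larger of its single effects, the joint effect was smaller in 46 of the 78 genes. These were the most abundant of the less-than-sum genes, with a median of 70.05 CPM in their highest group, and 56 of 78 reached 10 CPM in at least 1 group.

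The 78 genes fell into 2 patterns. In 23 both further rises were still called, that is, knockdown raised them in the presence of PE and PE raised them after knockdown. These 23 had large single effects, with medians of 1.88 for knockdown and 2.25 for PE. All 23 were highest in siKlf2 with PE, which their definition fixes. Their joint effect had a median of 3.51 and exceeded the larger single effect by a median of 0.98. In the other 55, here called saturated, at least 1 of the 2 further rises was not called, or was called as a fall. The name thus covers more than a plateau, since at least 1 further effect was called as a fall in 33 of the 55. Their medians were 0.62 for knockdown alone, 0.76 for PE alone and 0.59 for the joint treatment. In 11 of the 55 neither further effect was called, with medians of -0.05 for knockdown with PE and -0.12 for PE after knockdown. In another 12 both were called as falls, so that the joint treatment lay below either factor alone. Over all tested genes knockdown with PE was called for 54.3% (26.1% higher and 28.2% lower) and PE in siKlf2 for 48.1% (24.4% and 23.7%), and since these contrasts define the patterns, nothing is read from their shares here. A further effect that was not called is not shown to be absent.

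Genes lowered by both factors and falling by less than the sum numbered 68. Their medians were -0.86 for knockdown alone, -0.79 for PE alone and -0.79 for both together, against a sum of -1.67. The median departure was 0.81. All but 4 of the 68 were saturated in the sense above, and in 20 of these 64 neither further effect was called. In 28 of the 64 at least 1 further effect was called as a rise. Both were in 10 of these, with medians of 0.40 for knockdown with PE and 0.41 for PE after knockdown. They were scarcer transcripts than the raised genes, with a median of 6.14 CPM in their highest group, and 25 of 68 reached 10 CPM in any group. The siNeg group was the highest of the 4 in 65 of them, which the class largely fixes. The 3 treated groups lay close together in their set medians. In the plot of gene sets by library, the siNeg libraries stood at medians of 0.47 and 0.49 above the genes' own means, and the 6 treated libraries between -0.22 and -0.14.

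**Figure D3:**
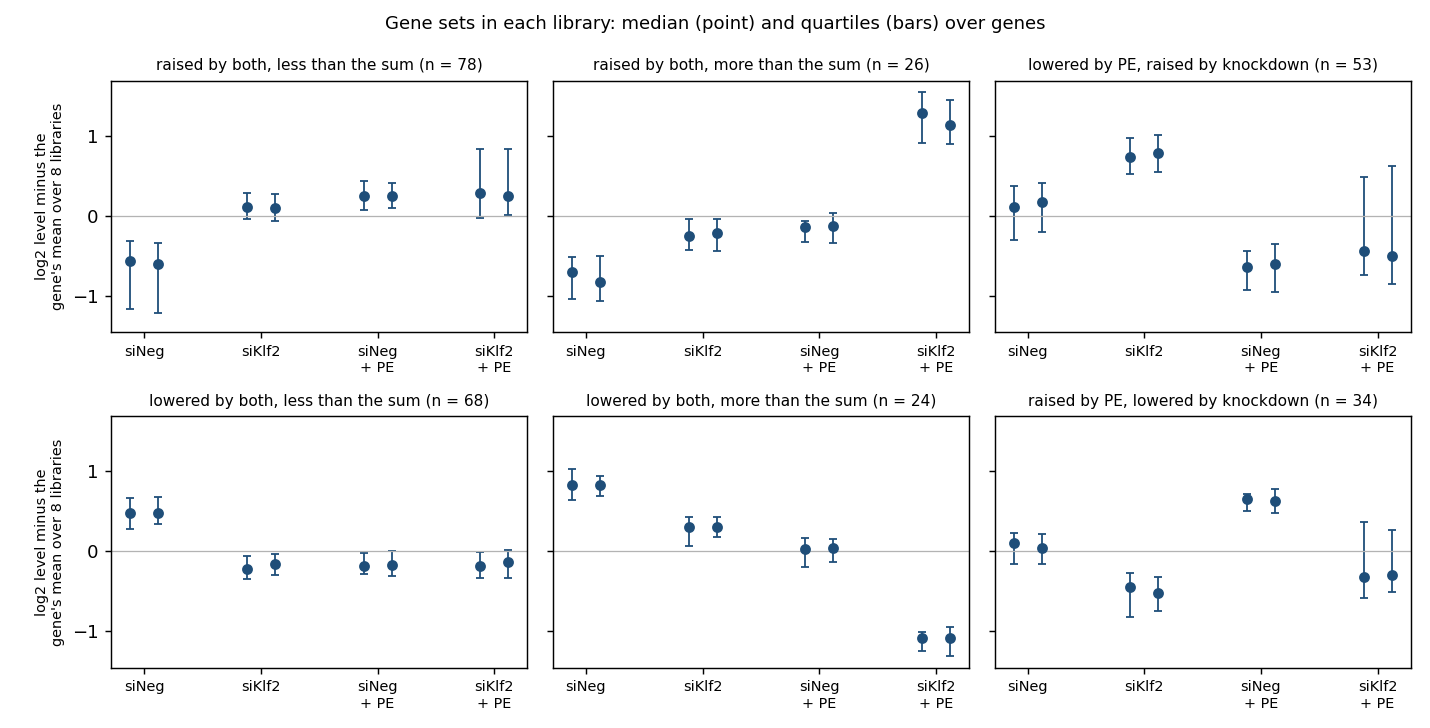
Level of 6 gene sets in each of the 8 libraries, as log2(CPM + 0.5) minus the gene's mean over the libraries (vertical axis), by group (horizontal axis, 2 libraries each). Points are medians over the genes of a set and bars their quartiles. In the lowered less-than-sum set the medians of the 6 treated libraries lie close together. In the raised one the upper quartile of siKlf2 with PE, at 0.83 and 0.84, lies above that of siKlf2, at 0.29 and 0.27, and in the more-than-sum sets siKlf2 with PE stands apart from the other 3 groups. The sets were chosen on these libraries.

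Genes on which both factors acted in the same direction and together by more than the sum were fewer. In 26 genes both raised the level, with medians of 0.53 for knockdown and 0.54 for PE, and the joint effect had a median of 2.14 against a sum of 1.26. The siKlf2 with PE libraries of this set stood at medians of 1.28 and 1.14 above the genes' own means, and the other 6 libraries between -0.82 and -0.13. In 24 genes both lowered the level, with medians of -0.57 and -0.95, and a joint effect of -2.21 against a sum of -1.42. The raised genes were the most abundant of any class, with a median of 103 CPM in their highest group, and 22 of 26 reached 10 CPM. Median single effects of these genes were smaller than those of the raised genes that reached less than the sum (0.53 against 0.86 for knockdown, 0.54 against 1.05 for PE), a comparison that the classes partly fix.

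ENSRNOG00000021669 had the largest departure above 0 of the genes that met the rule. It lay at 15.2 and 13.6 CPM in siNeg, 32.2 and 31.4 CPM in siKlf2, 17.1 and 17.4 CPM in siNeg with PE, and 128 and 110.2 CPM in siKlf2 with PE. The siKlf2 with PE libraries stood above all others, and no groups overlapped. Knockdown alone changed it by 1.14 on the log2 scale (SE 0.068, edgeR adjusted p = 1.1e-07) and PE in siNeg by 0.26 (SE 0.069, edgeR adjusted p = 0.00838). With PE the knockdown effect was 2.79 (SE 0.069, edgeR adjusted p = 1.76e-10). The departure was 1.64 (SE 0.095, edgeR adjusted p = 2.99e-06), so the PE response was 1.2-fold in siNeg and 3.75-fold after knockdown.

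ENSRNOG00000015904 came second above 0. Its level was 11.6 and 11.1 CPM in siNeg, 9.53 and 10.5 CPM in siKlf2, 32.1 and 35.6 CPM in siNeg with PE, and 79.6 and 68.2 CPM in siKlf2 with PE. Here the groups without PE lay close together and both groups with PE above them. Knockdown alone gave a log2 fold change of -0.18 that was not called (SE 0.08, edgeR adjusted p = 0.0816), and PE in siNeg one of 1.58 (SE 0.077, edgeR adjusted p = 2.5e-08). In the presence of PE knockdown raised the gene by 1.13 (SE 0.073, edgeR adjusted p = 2.11e-07). The departure was 1.31 (SE 0.11, edgeR adjusted p = 2.72e-05).

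ENSRNOG00000008141 had the largest departure below 0 under the rule. Its level was 32.1 and 32.2 CPM in siNeg, 434 and 471 CPM in siKlf2, 723 and 858 CPM in siNeg with PE, and 2058 and 2039.8 CPM in siKlf2 with PE. The 4 groups did not overlap, and siKlf2 with PE was the highest. The departure of -2.44 (SE 0.095, edgeR adjusted p = 2.93e-07) set a PE response of 24.6-fold in siNeg against 4.53-fold after knockdown. The product of the single folds would have put the joint level at 11124 CPM.

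ENSRNOG00000008176 followed, at 183 and 182 CPM in siNeg, 2171 and 2163 CPM in siKlf2, 2754 and 3015 CPM in siNeg with PE, and 9929 and 9974 CPM in siKlf2 with PE. Again the groups did not overlap and the joint treatment gave the highest level. The departure was -1.78 (SE 0.059, edgeR adjusted p = 1.61e-07), with a PE response of 15.8-fold in siNeg and 4.59-fold after knockdown. Both IDs belong to the 23 raised genes whose further rises were still called, and for both the departure is a smaller fold from a higher starting level.

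**Figure D4:**
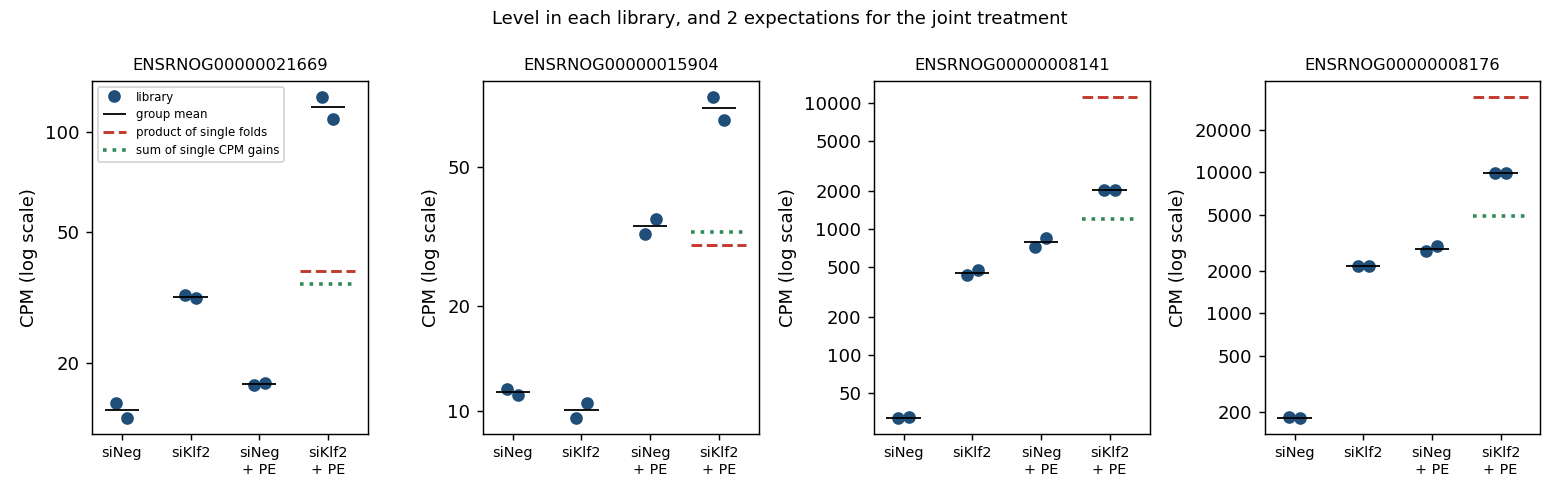
CPM on a log axis (vertical) in each library of the 4 groups (horizontal) for 4 IDs. Points are libraries and black bars group means. In the siKlf2 with PE column the red dashed bar is the product of the single folds and the green dotted bar the sum of the single gains in CPM. For the 2 left IDs the observed level lies above both bars, and for the 2 right IDs between them.

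Adding effects on the log2 scale multiplies folds, so the same genes were also set against a sum of gains in CPM. On that linear scale the direction of the departure turned for 30 of the 447 genes, in 22 of them by more than 2 SE, and 19 of these 30 were genes raised by both factors and called less than the sum. ENSRNOG00000008141 gained 758 CPM with PE in siNeg and 1596 CPM with PE after knockdown. Its level in siKlf2 with PE, 2049 ± 12.5 CPM (SD, n = 2), was above the 1211 CPM that the sum of gains gives, a linear departure of 838 CPM (SE 70.6). ENSRNOG00000008176 gained 2702 CPM with PE in siNeg and 7785 CPM after knockdown, and reached 9952 ± 32.1 CPM (SD, n = 2) against a sum of 4869 CPM, a linear departure of 5082 CPM (SE 132). Over the 16 ways of taking 1 library from each group, the linear departure ranged from 743 to 933 CPM for the first ID and from 4925 to 5240 CPM for the second. Both IDs thus rose by a smaller fold but by more CPM when PE met knockdown. SEs on the linear scale come from the spread of the 2 libraries pooled over the groups, and no test was run on them.

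Within the genes raised by both, those above the sum of gains were all among the 23 with further rises still called. Of these 23 genes, 19 lay above the sum of gains, 17 of them by more than 2 SE, and their median log2 ratio to that sum was 0.35. Of the 55 saturated genes, 0 lay above it and the median log2 ratio was -0.54, which their definition fixes, since a level at or below that of 1 factor alone cannot pass the sum of 2 gains except within noise. For the 68 genes lowered by both by less than the sum, arithmetic fixes the direction on the linear scale, so nothing is read from it. Among the 24 genes lowered by both by more than the sum, 11 turned direction on the linear scale, 5 of them by more than 2 SE. Where effects in the same direction add on the log2 scale, the joint level always lies above the level that adding their changes in CPM gives. The 2 scales thus ask different questions of the same levels.

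**Figure D5:**
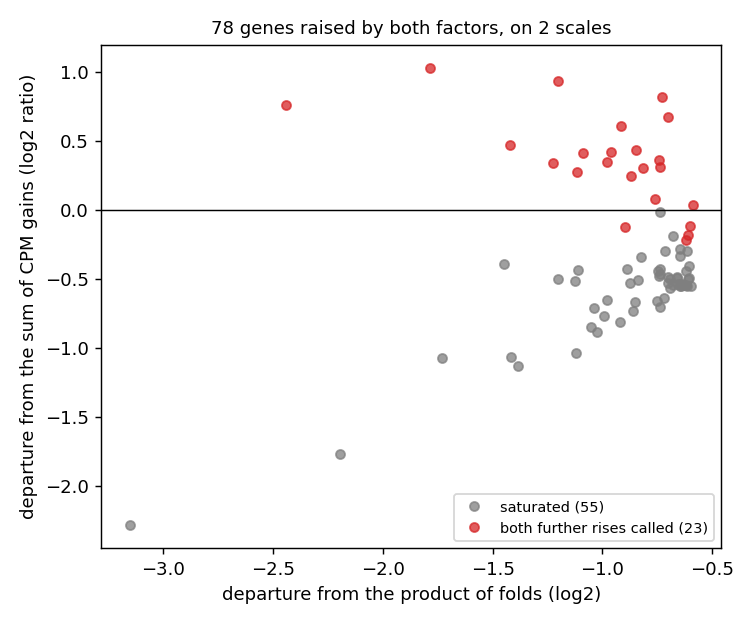
The 78 genes raised by both factors and reaching less than the sum of their log2 effects, with the log2 departure on the horizontal axis and the log2 ratio of the observed level in siKlf2 with PE to the sum of gains in CPM on the vertical axis. Red points are the 23 genes with both further rises called and grey points the 55 saturated genes. Above the black line the observed level exceeds the sum of gains, as in 19 red and 0 grey points.

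In 87 genes PE and knockdown alone acted in opposite directions. PE lowered and knockdown raised 53 of them, and in 33 of these the joint level was below the sum. Those 33 had medians of 0.59 for knockdown without PE and -0.24 for knockdown with PE, while the PE response went from -0.87 in siNeg to -1.70 after knockdown. All 33 were highest in siKlf2 without PE, which the class fixes. In the other 20 of the 53 the joint level was above the sum, with medians of 0.95 for knockdown without PE and 1.62 with it, and PE responses of -0.40 and 0.34. Of the 34 genes raised by PE and lowered by knockdown, 20 departed below 0 and 14 above. In those 20 the PE response had a median of 0.60 in siNeg and -0.27 after knockdown, and 14 of the 20 were lowest in siKlf2 with PE. In the other 14 the PE response had a median of 0.43 in siNeg and 1.30 after knockdown.

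Where only 1 single effect was called, the joint effect was smaller than that effect implied in 98 genes and larger in 42. PE was the called effect in 51 of the 98 and knockdown in 47. The 29 genes raised by PE alone in that group had a median PE response of 0.91 in siNeg and -0.13 after knockdown. All 29 were highest in siNeg with PE, which the class largely fixes. The 31 lowered by knockdown alone had a median of -0.77 without PE and 0.25 with PE. Among the 42 with a larger joint effect, the biggest set was 22 genes lowered by PE, with medians of -0.71 in siNeg and -1.63 after knockdown. ENSRNOG00000015904 is 1 of the 6 genes in which a rise with PE alone grew after knockdown. Most of these transcripts were scarce, with medians of 3.74 CPM for the 98 and 5.16 CPM for the 42 in their highest group. Without siNeg with PE replicate 1 the count of 98 became 200, of which 73 were among the 98.

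A response called in neither single comparison but called in the interaction was found in 24 genes, 15 lower and 9 higher than the sum. The 15 had medians of 0.18 for knockdown and 0.13 for PE, and of -1.10 for the joint effect. All but 2 of the 24 stayed under 10 CPM in every group, and 11 stayed under 1 CPM. Fitted folds of such scarce genes depend on the prior count of the fit. This count was 72 without siNeg with PE replicate 1, with 19 of the 24 among them, and 76 with no filter on low counts.

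Reversals were counted across the classes, as genes in which an effect was called in both settings with opposite signs. They numbered 139 of the 447. The knockdown effect reversed in 89 and the PE effect in 72, with 22 genes in both counts. Knockdown raised 52 genes without PE that it lowered with PE, at medians of 0.47 and -0.35, and it lowered 37 without PE that it raised with PE, at medians of -0.46 and 0.36. PE raised 33 genes in siNeg that it lowered after knockdown (medians 0.35 and -0.39) and lowered 39 that it raised after knockdown (medians -0.40 and 0.41). Most reversals joined 2 modest effects. Both knockdown effects reached 1.5 fold in 12 of the 89 genes and neither did in 56, and both PE effects reached it in 4 of the 72 and neither in 49. Of the 12 genes with 2 large knockdown effects, 1 reached 10 CPM in any group. By class, 61 reversals belonged to the less-than-sum genes, 50 to the opposed genes and 28 to those with only 1 single effect called. All 61 are also among the genes called saturated above. Without siNeg with PE replicate 1 the count of reversals was 216, of which 116 were among the 139.

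The overexpression experiment supplied 12 separate libraries of the same kind of cells, with an adenovirus carrying Klf2 (AdKlf2) or green fluorescent protein (AdGFP), 3 libraries per group. There PE, where used, came first, and the virus was added 12 h later for another 24 h. The order of the 2 treatments is thus opposite to that of the knockdown experiment. In AdGFP cells the PE response was called for 34.6% of the 16153 genes tested there, 18.3% higher and 16.3% lower. Of the 76 less-than-sum genes raised by both factors and tested there, PE raised 48 and lowered 4 in AdGFP. Of the 65 lowered by both, PE lowered 30 and raised 3. For the more-than-sum genes, PE raised 21 and lowered 1 of the 26 raised ones, and lowered 16 and raised 0 of the 24 lowered ones. The interaction of AdKlf2 with PE was called for 49.1% of tested genes, 25.1% higher and 24% lower. Among the 76 genes it was called lower for 38 and higher for 11, with a median of -0.78 against -0.03 over the 15944 genes tested in both tables. Among the 65 it was called higher for 25 and lower for 19, with a median of 0.25. Over all 425 interaction genes tested there it was called lower for 143 and higher for 101, with a median of -0.31. For the 33 raised by PE and lowered by knockdown the counts were 14 lower and 7 higher (median -0.49). For the 26 more-than-sum raised genes they were 9 lower and 10 higher (median -0.07). The AdGFP libraries without PE enter both the PE response and the interaction, and their replicates correlated at 0.9902 to 0.9913, under the 0.9954 to 0.9981 of the other 3 groups. Leaving out each of them in turn gave 47 to 48 genes raised and 4 to 5 lowered by PE among the 76, and 27 to 32 lowered and 4 to 5 raised among the 65. The interaction counts of these sets were not refitted without them.

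With PE present, AdKlf2 lay below AdGFP in 37 and above it in 19 of the 76 genes raised by both factors, where 65.8% of all tested genes were called, 32.1% lower and 33.6% higher. A lean to lower was also seen over the 425 interaction genes tested there, of which 186 were lower and 123 higher. It was 18 lower to 8 higher in the 33 genes raised by PE and lowered by knockdown, and 29 to 11 in the 52 with the opposite single effects. The 26 more-than-sum raised genes split 12 lower to 11 higher. Of the genes lowered by both factors, the 65 less-than-sum ones split 28 lower to 26 higher, and the 24 more-than-sum ones 11 to 6. The levels of AdGFP libraries without PE are not compared here except for the last ID, though they enter the fit through the filter, the scaling and the spread. ENSRNOG00000008141 reached 607.9, 573 and 619.98 CPM in AdGFP with PE and 24.3, 20.8 and 20.2 CPM in AdKlf2 with PE. Those groups did not overlap and gave a log2 difference of -4.78 (edgeR adjusted p = 8.03e-15, SE 0.17). ENSRNOG00000008176 lay at 3708 ± 98.4 CPM in AdGFP with PE and 1648 ± 101 CPM in AdKlf2 with PE (SD, n = 3), which is a log2 difference of -1.17 (edgeR adjusted p = 3.38e-11, SE 0.071). The IDs with departures above 0 did not follow that direction. ENSRNOG00000021669 lay at 30.1 ± 1.18 CPM in AdGFP with PE and 39.9 ± 4.13 CPM in AdKlf2 with PE (SD, n = 3), which is a log2 difference of 0.40 (edgeR adjusted p = 0.00875, SE 0.13). That call was lost without AdKlf2 with PE replicate 2 (edgeR adjusted p = 0.0512). ENSRNOG00000015904 rose from 119.7 ± 7.96 to 343 ± 23.3 CPM (SD, n = 3), which is a log2 difference of 1.52 (edgeR adjusted p = 8.2e-11, SE 0.098). With PE, this gene was thus higher both when Klf2 was targeted for knockdown and when it was added. AdKlf2 raised the gene without PE too, by 1.73 (edgeR adjusted p = 1.67e-10, SE 0.10), so that rise was not particular to PE.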

How the data were processed

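Tools named in the submitters' processing notes, without versions, are Trim Galore, STAR and featureCounts, with the rat build mRatBN7.2. The authors' deposited tables hold raw counts per gene. Even numbers were 59.8% to 66.6% of all counts from 1 to 20, so 1 fragment may often give 2 counts.

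Both tables were analysed with edgeR 4.0.16 in R 4.3.3: filterByExpr (minimum count 10, minimum total 15), TMM scaling, 1 coefficient per group, quasi-likelihood tests, two-sided, adjusted by Benjamini-Hochberg over all tested genes. The biological coefficient of variation was 0.049 and 0.132 in the knockdown and overexpression tables. The interaction test was run on simulated counts with no single effects, a common spread for all genes and departures planted only in genes of higher count. That simulation did not cover the classes, the reversals or departures of scarce genes. IDs were named as the 2 largest positive and 2 largest negative departures among called genes with at least 1.5 fold, at least 10 CPM in the highest group and replicates within 1.5 fold. Classes, rule and lists were chosen with earlier results of these data known. Lists of named genes were not used here, because IDs had no symbols, and the peak list was not used. Alternatives used DESeq2 1.42.0, limma 3.58.1 and other scalings, filters and libraries. Those for the overexpression table were chosen after seeing the data. Same-numbered libraries were not treated as pairs. Their deviations correlated at -0.146 to 0.237, which with 2 libraries per group cannot show whether preparations were shared. Summaries used Python 3.11.15.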

Additional observations from a re-analysis of the deposited data

Results flagged for a closer look

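The response to PE differed between siKlf2 and siNeg for all 4 IDs followed here, by the test of the difference itself in edgeR. The log2 difference of the PE response was 1.64 for ENSRNOG00000021669, 1.31 for ENSRNOG00000015904, -2.44 for ENSRNOG00000008141 and -1.78 for ENSRNOG00000008176. The IDs were chosen for the size of these values.

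In the overexpression table, the PE response differed between AdKlf2 and AdGFP for 3 of them. The log2 difference was 0.63 for ENSRNOG00000021669, -5.91 for ENSRNOG00000008141 and -0.61 for ENSRNOG00000008176. For ENSRNOG00000008141 the PE response in AdKlf2 was -0.35 and was not called (edgeR adjusted p = 0.0555), against 5.56 in AdGFP. AdKlf2 raised this ID without PE by 1.13 (edgeR adjusted p = 1.39e-05, SE 0.16) and lowered it with PE by -4.78 on the log2 scale.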

How the results depend on the processing

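All 4 departures kept their direction and their call under the 8 alternative settings, and their direction in the 8 fits without 1 library. The IDs were chosen on the same libraries for large departures and replicates within 1.5 fold. That choice all but fixes the direction when 1 library is left out, so it is no test of these IDs. The values ranged from 1.54 to 1.76 for ENSRNOG00000021669, from 1.20 to 1.43 for ENSRNOG00000015904, from -2.56 to -2.31 for ENSRNOG00000008141 and from -1.85 to -1.72 for ENSRNOG00000008176.

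Counts moved by over 1.5 times as follows. With library totals alone, the genes with only 1 single effect and a larger joint effect numbered 65 and those with neither effect called 39. With no filter on low counts the latter numbered 76. Requiring a mean of 10 CPM, which tests fewer genes, left 191 interaction genes of at least 1.5 fold. It left 80 less than the sum (59 saturated), 28 more than the sum, 13 larger and 14 smaller with only 1 single effect, 2 with neither, 54 opposed and 87 reversals. It left 6451 and 6531 calls for knockdown without and with PE and 7387 for the joint effect.

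Leaving out each library in turn gave 1553 to 3312 interaction calls, 72 to 200 genes with only 1 single effect and a smaller joint effect, 16 to 72 with neither and 110 to 216 reversals. For the lowered less-than-sum genes, 3 to 5 were raised by PE in AdGFP. Such fits keep 1 library in a group, which is taken to vary like the others. The interaction of ENSRNOG00000015904 in the overexpression table, -0.21 and not called, was called without AdGFP replicate 3 (-0.37, edgeR adjusted p = 0.00496). The replicate block, which the labels do not tie to shared preparations, gave 2622 interaction calls, 2499 of them shared, and 444 of at least 1.5 fold. With 2 libraries per group, genes under 1 CPM could be called only at large departures.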
